A study of Mus musculus with 8 samples.

Results

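Bves, Popdc2 and Popdc3 are the 3 Popeye domain genes of the mouse, and their probes on the array were taken by gene name. Each gene had 1 probe, so the results below rest on 3 of 41174 probes, standing for 3 of 27729 gene names. The samples were cells of E10.5 mouse hearts, all carrying minKGFP, a transgene on a bacterial artificial chromosome that makes green fluorescent protein (GFP) where minK is active; minK is the potassium channel subunit encoded by Kcne1. Enzyme-dissociated hearts were sorted by fluorescence into GFP-high cells, labelled as conduction system, and GFP-low cells, labelled as chamber myocardium, with 4 biological replicates each and 1 single-colour Agilent array per replicate. Both groups came from transgenic hearts, and a group without the transgene was not analysed here. The labels do not say whether equal replicate numbers mark a shared litter or sort.

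Popeye domain proteins sit in the plasma membrane of heart and skeletal muscle cells and bind cyclic AMP, the second messenger of adrenergic stimulation, through the domain that gives the family its name. Bves, also called Popdc1, was described as a blood vessel and epicardial substance and is now known as a muscle membrane protein, and Popdc2 is its close relative in heart muscle. Mice without Bves or Popdc2 develop slow sinus rhythm under stress, which is why the family is counted among the genes of pacemaker function. Less is known of the role of Popdc3 in the heart.

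The values of each gene are the readings of a single 60-base probe, and the 3 probe sequences are shown because every level given here is the hybridisation to these letters. The sequences are those in the deposited files, 5′ to 3′, with no part set in capitals.
Popdc2: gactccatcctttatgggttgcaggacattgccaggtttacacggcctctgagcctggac
Bves: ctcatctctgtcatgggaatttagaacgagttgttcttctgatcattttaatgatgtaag
Popdc3: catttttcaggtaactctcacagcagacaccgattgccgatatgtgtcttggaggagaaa
On mouse build mm9, as the files give it, the Popdc2 probe lay at chr16:38378016-38378075 and the Bves probe at chr10:45089408-45089467. The Popdc3 probe was placed at chr10:45036336-45037554. These 1219 bases are more than the 60 of the probe, so it spans a splice junction. The probes differed in base composition, with 55% G and C for Popdc2, 35% for Bves and 45% for Popdc3, and a brightness is not compared between probes for that reason. Bves and Popdc3 are neighbours: 51853 bases lay between their probes on chromosome 10, and no other protein-coding gene starts between them in the RefSeq table of GRCm38.p6, where Prep and Lin28b stand on either side.

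The sort can be checked on Kcne1, whose regulatory region drives the reporter. Its 2 probes read 2.45-fold and 7.13-fold higher in GFP-high than in GFP-low, and on both the arrays of the groups did not overlap. The share of spots well above background lay between 36.3% and 50.7% per array, from 36.3% to 48.8% in GFP-high and from 40.5% to 50.7% in GFP-low. All 3 Popeye probes were well above background on all 8 arrays, and no spot of any array was saturated. The lowest Popeye reading, Popdc3 on GFP-low replicate 4, stood 2.30 on the log2 scale above the lowest signal of its array that was flagged well above background. Levels are given as log2 of the processed signal minus the 75th percentile of the array, so a level of 0 equals that percentile.

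Of the Popeye genes, Popdc2 was the only one whose arrays were separated between the groups. It stood 1.69-fold higher in GFP-high (95% interval 1.12 to 2.54), but it did not pass the test over all genes. In simulated data the same fit recovered 0% of changes of log2 1. However, 87.0% of the tested genes had a larger spread within groups than Popdc2. The simulated share is therefore not an estimate for Popdc2 itself. Bves stood at the same level in both groups within an interval of 0.683 to 1.54-fold. Popdc3 had almost equal group means as well, but its arrays were spread so widely that any ratio between 0.427 and 2.52-fold lay within the interval. None of the 3 genes was called, where limma called 0.14% of the 12883 genes tested at a Benjamini-Hochberg adjusted p under 0.05, 0.0699% higher and 0.0699% lower in GFP-high. All 3 differences were positive, as were 62.1% of those of all tested genes.

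Popdc2 read 6.09, 6.51, 5.79 and 6.49 in GFP-high replicates 1 to 4, against 5.67, 5.54, 5.19 and 5.46 in GFP-low replicates 1 to 4. The lowest GFP-high array, replicate 3, lay just above the highest GFP-low array, replicate 1, so the groups did not overlap. Arrays of the groups were separated in this way in 8.94% of the tested genes, and with GFP-high above in 5.86%. The group means were 6.22 ± 0.35 in GFP-high and 5.47 ± 0.20 in GFP-low (SD, n = 4 each), a log2 difference of 0.76 ± 0.26 (SE). The limma adjusted p was 0.268 (unadjusted p = 0.0175), and 6.52% of the tested genes had a smaller unadjusted p. An unadjusted p under 0.05 with GFP-high above was reached by 7.93% of the tested genes. The exact two-sided permutation test over the 8 arrays gave p = 0.0286, the smallest that 4 against 4 arrays can give. In these sorted bulk samples a larger share of expressing cells and more RNA per cell cannot be told apart.

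**Figure D1:**
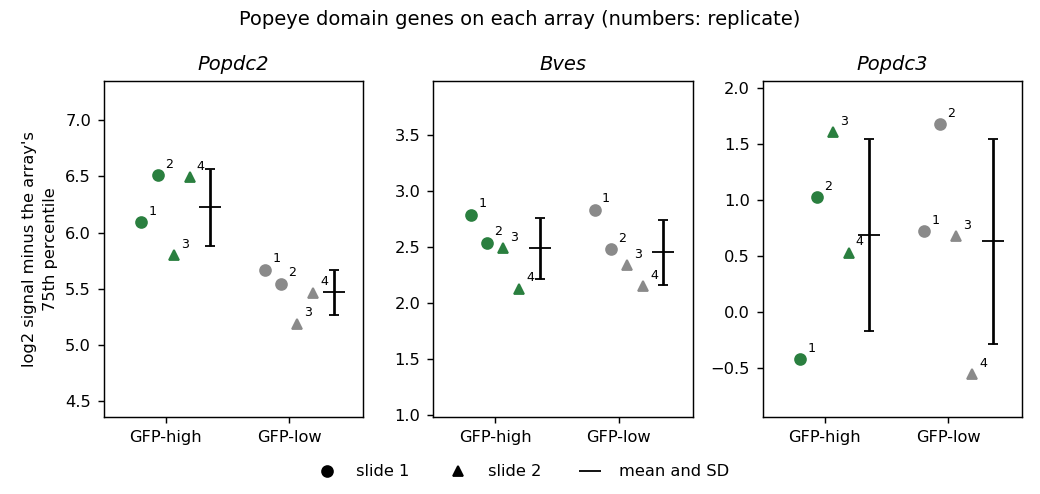
Log2 signal minus the 75th percentile of the array (vertical axis) for Popdc2, Bves and Popdc3 on each of the 8 arrays, GFP-high left of GFP-low; numbers give the replicate, shapes the slide, and the bar the mean and SD of 4 arrays. All 4 GFP-high arrays of Popdc2 lie above its GFP-low arrays, the groups of Bves cover the same range, and Popdc3 runs from -0.56 to 1.67.

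The Popdc2 difference had the same direction on both slides. Each slide held 2 arrays per group, and the log2 difference was 0.70 within slide 1 and 0.82 within slide 2. The median tested gene was 0.16 higher in GFP-high on this scale, so Popdc2 stood 0.60 above the median gene. All 14 cardiomyocyte marker genes, among them the troponin gene Tnnt2 and the myosin genes Myh6 and Myh7, also had positive differences. Their median was 0.34, and none was called. Over all tested genes 62.1% were positive and 0.14% were called. The summed level of the 14 markers ran from 11.9 to 12.5 in GFP-high and from 11.4 to 12.1 in GFP-low on the log2 scale. Against the mean of these 14 markers on the same array, Popdc2 was 0.39 higher in GFP-high (exact two-sided permutation p = 0.143), and the part of the muscle markers in its difference was otherwise not tested.

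Bves read 2.79, 2.54, 2.49 and 2.13 in GFP-high replicates 1 to 4, against 2.83, 2.48, 2.34 and 2.15 in GFP-low replicates 1 to 4. Both groups covered the same range, with replicate 1 at the top and replicate 4 at the bottom of each. The means were 2.48 ± 0.27 in GFP-high and 2.45 ± 0.29 in GFP-low (SD, n = 4 each), and the log2 difference was 0.036 ± 0.26 (SE, limma adjusted p = 0.960; exact permutation p = 0.857). The interval of the difference, -0.55 to 0.62, leaves room for changes of up to about that size in either direction. The spread between replicate numbers is part of this interval, and with a block for the number the SE was 0.19. Bves varied by only 1.63-fold over all 8 arrays, and 87.4% of the tested genes had a larger spread within groups. Its sign is not settled, since it became negative under several other scalings and background corrections.

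As Bves takes its name from the epicardium, the markers of that layer are given beside it. Of 10 epicardial markers, 5 were tested. All 5 had positive differences (62.1% of all tested genes did), and none was called (0.14% of all tested genes were). Their summed level was 3.0 to 3.21 in GFP-high and 2.41 to 3.05 in GFP-low. Tbx18 and Krt19 exceeded background on 4 arrays of each group. Tbx18 had a mean of 1.89 in GFP-high and 1.38 in GFP-low, and Krt19 had 2.11 and 1.67. Wt1, a transcription factor of the epicardium, exceeded background on 3 GFP-high arrays and 2 GFP-low arrays. For Tcf21 these counts were 3 and 1, and for Aldh1a2 they were 2 and 2. The surface genes Upk3b, Upk1b and Msln exceeded background on no array, and neither did Bnc1 and Lrrn4.

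Popdc3 read -0.42, 1.03, 1.61 and 0.53 in GFP-high replicates 1 to 4, against 0.72, 1.67, 0.68 and -0.56 in GFP-low replicates 1 to 4. The lowest array of each group stood more than 2 below its highest on the log2 scale, and the groups overlapped throughout. The means were 0.68 ± 0.86 in GFP-high and 0.63 ± 0.91 in GFP-low (SD, n = 4 each), and they differed by 0.055 ± 0.56 on the log2 scale (SE; adjusted p = 0.972 by limma; exact permutation p = 0.943). Popdc3 varied by 4.69-fold over the 8 arrays. Its pooled SD within groups was 0.89, against 0.28 for each of the other 2 Popeye genes and a median of 0.57 over all tested genes.

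The near-zero mean of Popdc3 joined opposite values on the slides. Within slide 1 GFP-high was lower by a log2 difference of -0.90, and within slide 2 it was higher by 1.01. The difference between the slides, 1.90 ± 1.03 (SE), did not pass in a limma fit with a term for it (adjusted p = 1.0, unadjusted p = 0.110), a test added after the values were seen. No gene was called in that limma fit, and 3.9% of genes had an unadjusted p under 0.05. Bves and Popdc2 differed between slides by 0.057 and 0.12. All 4 tested globin genes, markers of red cells, also had negative differences within slide 1 and positive ones within slide 2. The embryonic globin gene Hbb-bh1 had log2 differences of -1.68 within slide 1 and 1.23 within slide 2. The other 2 tested erythroid markers did not share this pattern. Epor, the erythropoietin receptor gene, had 0.32 within slide 1 and 0.43 within slide 2, and Alas2, an enzyme of heme synthesis, had 0.20 within slide 1 and -0.16 within slide 2. The change of sign was not particular to globins. Tubb3 of the neural list had -2.69 and 0.92, and Pdgfra and Col1a1 of the cushion mesenchyme list also changed sign this way. Foxd3, Col1a2 and Col3a1 of these lists did not. The share of all tested genes with this pattern was not counted. The summed level of the 6 tested of 8 erythroid markers ran from 4.69 to 7.54 in GFP-high and from 3.67 to 7.43 in GFP-low, and their part in the Popdc3 values was not tested.

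Whether the Popeye genes differed from each other in their response to the sort was tested on the log2 ratio of 2 members within each array, for 3 pairs. The ratio of Popdc2 to Bves was higher in GFP-high than in GFP-low by 0.72, at 3.74 ± 0.53 against 3.02 ± 0.22 (SD, n = 4 each; exact two-sided permutation p = 0.0857, adjusted over 3 pairs 0.257). It ran from 3.30 to 4.37 in GFP-high and from 2.84 to 3.31 in GFP-low, so the groups met at the edge. The ratio of Popdc2 to Popdc3 differed by 0.70 (exact permutation p = 0.343, adjusted 0.514) and that of Bves to Popdc3 by -0.019 (exact permutation p = 0.943, adjusted 0.943). No pair passed, and this does not show that the genes responded alike.

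No correlation between members over the arrays passed its test. Across the 8 arrays Pearson's r was 0.048 for Popdc2 and Bves (exact permutation p = 0.913), -0.0063 for Popdc2 and Popdc3 (exact permutation p = 0.987) and 0.11 for the neighbours Bves and Popdc3 (exact permutation p = 0.784). Spearman's rho was 0.26 (exact permutation p = 0.536), 0.095 (exact permutation p = 0.840) and 0.29 (exact permutation p = 0.501) for these pairs in the same order. Adjusted over the 3 pairs, all p were 0.805 or higher. Without the 2 arrays farthest from the median of the first gene, r was 0.69, -0.16 and 0.092, so the value for Popdc2 and Bves rests on GFP-high replicates 2 and 4.

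As a description of each pattern, the 3 genes with the highest Pearson r over the 8 arrays are named, out of 12876 compared. Nearest to Popdc2 were Syngr4 (r = 0.97), Ccdc22 (r = 0.97) and Dlgap2 (r = 0.96), and 129 genes had an r over 0.9. Nearest to Bves were Gorasp2 (r = 0.96), Nf2 (r = 0.94) and Edc4 (r = 0.93), with 15 genes over 0.9. Nearest to Popdc3 were Rabgap1l, Heca and Vnn1 (r = 0.97 each), with 13 genes over 0.9. These values are a description over 8 arrays, which the genes share. Syngr4 read -3.12 on GFP-low replicate 1, -3.30 on GFP-low replicate 3 and -2.83 on GFP-high replicate 3. Rabgap1l read -4.80 on GFP-high replicate 1, -2.14 on GFP-low replicate 1 and -3.78 on GFP-low replicate 4. These readings, and that of Syngr4 on GFP-low replicate 4, lay below the lowest signal well above background on their arrays. The r of Syngr4 and that of Rabgap1l therefore rest partly on background.

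The Popeye proteins work beside other proteins, and 10 genes for reported binding partners and their close relatives were examined. Of these, 7 were tested and 0 were called (0.14% of all tested genes were). Of the 7, 4 had positive differences (62.1% of all tested genes did), and the median was 0.046, against 0.16 over all tested genes. In 3 of the 7, Tjp1, Cav3 and Ndrg4, the arrays of the groups did not overlap, against 8.94% of all tested genes.

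Tjp1 encodes ZO-1, a scaffold of tight junctions and the intercalated disc that binds Bves. It read 0.35, -1.36, -0.86 and -0.26 in GFP-high replicates 1 to 4, against 0.51, 2.06, 1.89 and 1.82 in GFP-low replicates 1 to 4. GFP-low replicate 1 stood apart from its group and only just above the highest GFP-high array. The log2 difference was -2.10 ± 0.47 (SE, limma adjusted p = 0.158), and without GFP-low replicate 1 it was -2.46 (limma adjusted p = 0.123). The second Tjp1 probe gave -0.95, with an exact permutation p of 0.114, and the arrays overlapped there.

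Cav3, the muscle caveolin, forms membrane pits in which Bves is also found. It read 2.28, 2.66, 1.79 and 2.48 in GFP-high replicates 1 to 4, against 2.77, 3.03, 3.24 and 3.17 in GFP-low replicates 1 to 4. Every GFP-high array lay below every GFP-low array, opposite to Popdc2. The log2 difference was -0.75 ± 0.27 (SE, limma adjusted p = 0.282), with -0.43 within slide 1 and -1.07 within slide 2. Ndrg4, a cytoplasmic protein reported to bind Bves in epicardial cells, had the other direction, at 6.66 ± 0.26 in GFP-high and 6.20 ± 0.13 in GFP-low (SD, n = 4 each; limma adjusted p = 0.393), and was chosen after its values were seen. Its second probe differed by 0.32 with overlapping arrays, and relative to the cardiomyocyte markers its difference was 0.10. Kcnk2, the TREK-1 potassium channel whose current Popeye proteins raise, was not tested, as it exceeded background on 1 GFP-high array and 0 GFP-low arrays.

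**Figure D2:**
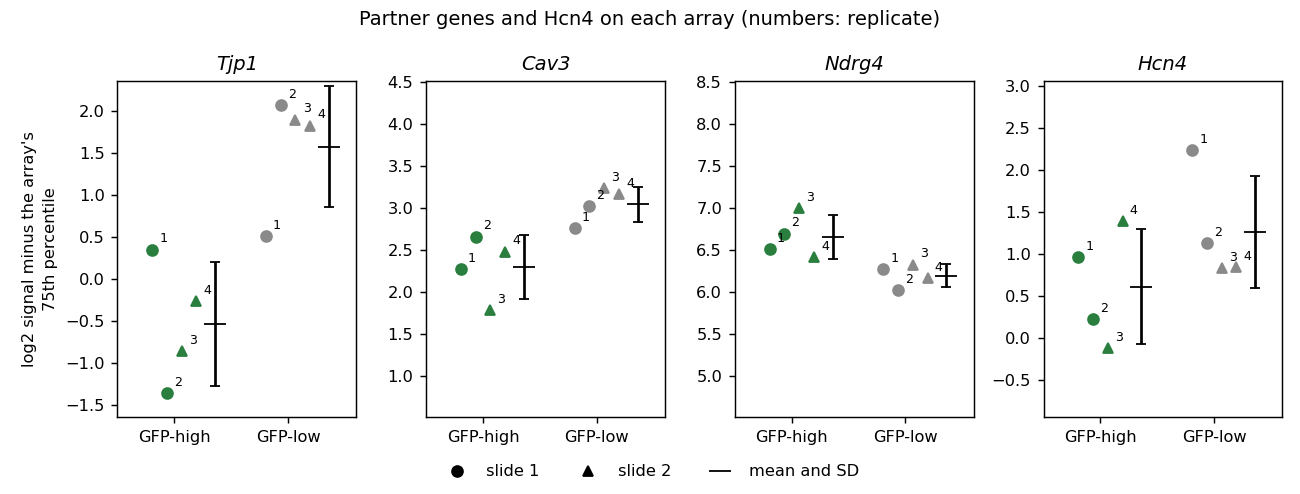
Log2 signal minus the 75th percentile of the array (vertical axis) for the partner genes Tjp1, Cav3 and Ndrg4 and for Hcn4 on each of the 8 arrays, GFP-high left of GFP-low; numbers give the replicate, shapes the slide, and the bar the mean and SD of 4 arrays. Tjp1 and Cav3 lie lower and Ndrg4 lies higher on all 4 GFP-high arrays, with GFP-low replicate 1 of Tjp1 at 0.51 close to the GFP-high arrays, while Hcn4 overlaps.

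Cyclic AMP is read in heart cells by the regulatory subunits of protein kinase A, the Epac exchange factors and cyclic nucleotide gated channels, the HCN pacemaker channels among them. Of 16 such genes 10 were tested and 0 were called (0.14% of all tested genes were). Positive differences were found in 4 of the 10 (62.1% of all tested genes), and the median was -0.072, against 0.16. Hcn4, the main pacemaker channel, read 0.96, 0.23, -0.12 and 1.39 in GFP-high replicates 1 to 4, against 2.24, 1.13, 0.83 and 0.84 in GFP-low replicates 1 to 4. GFP-high replicates 2 and 3 were the lowest arrays and GFP-low replicate 1 the highest, and the groups overlapped. The log2 difference of Hcn4 was -0.65 ± 0.45 (SE; adjusted p = 0.518 by limma), and the other Hcn4 probe differed by -0.60. The difference was -0.32 without GFP-low replicate 1, -0.40 without GFP-high replicate 3, -1.09 within slide 1 and -0.20 within slide 2. Prkar1a, the main regulatory subunit, is given after its value was seen and had a log2 difference of 0.0044 ± 0.24 (SE).

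The members with the smallest p were Hcn3, an HCN channel at -0.94 ± 0.45 (SE, limma adjusted p = 0.375), and Prkar2a, a regulatory subunit that anchors the kinase, at -0.79 ± 0.41 (SE, limma adjusted p = 0.409). The Hcn3 difference was -0.19 after normexp background correction, -0.58 without GFP-low replicate 3, -0.27 within slide 1 and -1.62 within slide 2, and its probe was above background on 2 arrays of each group. Without GFP-high replicate 4 the Prkar2a difference was -0.46. A further Prkar2a probe, above background on all 8 arrays, gave -1.47. Another gave -2.50, but it exceeded background on 2 GFP-high arrays and 4 GFP-low arrays, so it passed the filter through GFP-low and its GFP-high level is partly at background. Hcn2, an HCN channel chosen after its values were seen as the 1 reader with separated arrays, had a difference of 0.97. It exceeded background on 4 GFP-high arrays and 3 GFP-low arrays. The Hcn2 difference was 0.43 after normexp background correction, 0.37 without GFP-low replicate 3, 0.18 within slide 1 and 1.77 within slide 2. This 1 of 10 readers is close to the 8.94% of all tested genes with separated arrays.

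Cyclic AMP is made by adenylyl cyclases and broken down by phosphodiesterases. Of 25 such genes 16 were tested and 0 were called (0.14% of all tested genes were). Positive differences were found in 9 of the 16 (62.1% of all tested genes), and the median was 0.11, against 0.16. The members with the smallest p were the cyclases Adcy1 and Adcy5, of which Adcy5 is a main cardiac form. Adcy5 differed by 1.36 ± 0.59 on the log2 scale (SE; adjusted p = 0.345 by limma), while its other probe differed by 0.74. The tested probe exceeded background on 4 GFP-high arrays and 2 GFP-low arrays. The Adcy5 difference was 0.45 within slide 1 and 2.27 within slide 2. Adcy1 differed by -1.12 ± 0.46 (SE; adjusted p = 0.330 by limma) and exceeded background on 2 GFP-high arrays and 3 GFP-low arrays. Its difference was -0.71 without GFP-low replicate 3, -0.23 within slide 1 and -2.0 within slide 2. With normexp background correction these values were 0.78 for Adcy5 and -0.43 for Adcy1. Adcy9, the cyclase reported in a complex with Bves, was above background on no array.

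**Figure D3:**
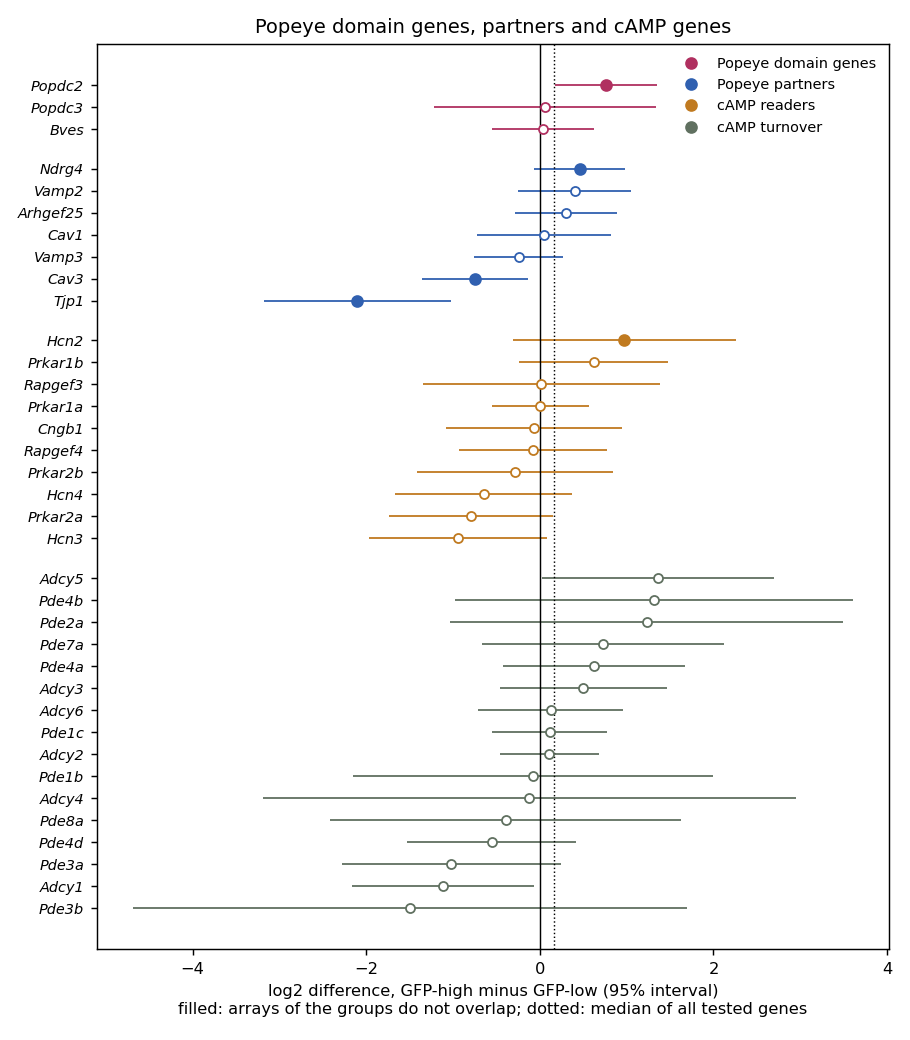
Log2 difference of GFP-high minus GFP-low (horizontal axis) with its 95% limma interval for the 3 Popeye domain genes and for every tested member of the partner, cyclic AMP reader and cyclic AMP turnover lists. Filled points mark genes whose arrays did not overlap between the groups (Popdc2, Ndrg4, Cav3, Tjp1 and Hcn2), and the dotted line marks the median of all tested genes at 0.16.

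Markers of other cell types showed no called member, where 0.14% of all tested genes were called. In the leukocyte list 2 of 6 genes were tested, and its summed level ran from 3.41 to 3.92 in GFP-high and from 1.78 to 2.44 in GFP-low. This sum was carried by Lyz2, a lysozyme gene, at 3.56 ± 0.22 in GFP-high and 2.10 ± 0.26 in GFP-low (SD, n = 4 each; limma adjusted p = 0.0949), with separated arrays. The arrays of Cd68, a macrophage gene, overlapped, at -0.63 ± 0.64 in GFP-high and -1.57 ± 1.42 in GFP-low (SD, n = 4 each), and Ptprc and Csf1r were above background on no array. The smooth muscle list ran from 6.17 to 6.50 in GFP-high and from 5.96 to 6.37 in GFP-low, with 5 of 5 tested. This sum was carried by Cnn1 (means 5.56 in GFP-high and 5.06 in GFP-low) and Myocd (4.63 and 5.14). Myh11 had 0.91 and 0.82, Lmod1 0.68 and 0.88, and Smtn -1.67 and -1.28. The sum is therefore no measure of the number of smooth muscle cells. The endothelial list had 4 of 10 tested (0.26 to 2.25 in GFP-high and 0.72 to 2.32 in GFP-low), the cushion mesenchyme list 4 of 10 (1.01 to 2.15 and 1.43 to 3.45) and the neural list 2 of 8 (0.23 to 1.66 and 0.15 to 2.09). Of the 6 skeletal muscle factors none was tested, and Myod1 exceeded background on 2 GFP-high arrays and 1 GFP-low array. The part of these cells in the Popeye values was not tested.

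The differences of the Popeye genes were recomputed under 25 other settings. Settings that changed only the filter, a common floor, the probe choice, the variance estimate or a block returned the same difference, as did the deposited table. These could not change a sign, and the counts below include them. Popdc2 was positive in all 25, from 0.39 against the cardiomyocyte markers to 0.90 without GFP-high replicate 3, and its limma adjusted p lay between 0.126 and 0.982. Bves was positive in 18 and negative in 7, and Popdc3 was positive in 17 and negative in 8, and neither was called in any of these settings.

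**Figure D4:**
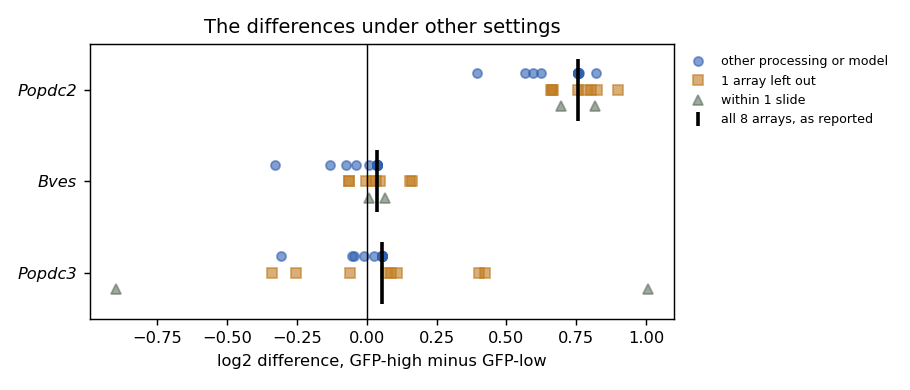
Log2 difference of GFP-high minus GFP-low (horizontal axis) for Popdc2, Bves and Popdc3 under each of the 25 other settings, with the value from all 8 arrays as a black bar. The points of Popdc2 all lie above 0, those of Bves lie on both sides close to 0, and those of Popdc3 reach from -0.90 within slide 1 to 1.01 within slide 2.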

How the data were processed

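Per the submitters' processing notes, the arrays were read with Agilent Feature Extraction 10.5.1.1, and the authors deposited 1-colour spot intensities that, per the file headers, were background-subtracted and detrended but not scaled between arrays. Per the labels, the RNA input was 5 ng, amplified before 2 ug was labelled. The deposited whole-series table was identical to these values at each of the 45018 spots, and its column medians ran from 12.2 to 19.9.

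Control spots and outlier spots were left out, spots of 1 probe were averaged, and the 75th percentile of the array, taken over its 43379 spots outside the controls, was subtracted on the log2 scale. Of 41174 probes 33070 received a current symbol from the RefSeq table. The probe with the highest mean stood for each gene. It was tested if well above background on at least 4 of 8 arrays, which left 12883 of 27729 gene names. The fit used limma 3.58.1 in R 4.3.3 with 1 term, the group, and was tested on simulated data with 200 changed genes of 12883. There it recovered 0% of changes of log2 1 and 41% of changes of log2 2. Of its intervals, 95% held the true value. Single values were tested by exact two-sided permutation over 70 assignments. The number of arrays limits the precision. Genes named beside the members were Kcne1, the 3 nearest in pattern, Hcn4, Kcnk2, and in each pathway list the called members and the 2 with the smallest p; others are marked. The members and lists were chosen with earlier results of these data known.

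Per the file headers slide 1 held replicates 1 and 2 and slide 2 replicates 3 and 4 of both groups. Alternatives changed the background correction, scaling, filter, probe choice, model, slide, pairing and each array.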

Additional observations from a re-analysis of the deposited data

Results flagged for a closer look

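In 44 groups of 4 arrays, 2 arrays stood far from the others of their group, where chance flags about 1 in 20. Tjp1 on GFP-low replicate 1 read 0.51 against 1.82 for the nearest array of its group, a gap of 0.846 of the whole range of the group. Hcn2 on GFP-low replicate 3 read -3.79 against -1.43 for the nearest array, a gap of 0.958 of the range. This Hcn2 reading lay below the lowest signal well above background on its array. No Popeye domain gene had such an array.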

How the results depend on the processing

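Popdc2 kept its direction and stayed uncalled in all 25 other settings. Those that changed only the filter, floor, probe choice, variance estimate or block could not alter its difference. Bves was negative with normexp background correction (-0.13), normexp and quantile normalisation (-0.075), quantile normalisation (-0.040) and relative to the cardiomyocyte markers (-0.33), and ran from -0.065 to 0.16 when 1 array was left out. Popdc3 was negative with normexp (-0.053), normexp and quantile normalisation (-0.011), array weights (-0.047), relative to the cardiomyocyte markers (-0.31) and within slide 1 (-0.90), and ran from -0.34 to 0.42 when 1 array was left out; the causes were not tested. Leaving out 1 array moved Popdc2 between 0.66 and 0.90. With normexp the ratio of Popdc2 to Bves differed by 0.76 with an exact permutation p of 0.0286, which was 0.0857 after adjustment over the 3 pairs, and the other pairs also did not pass. The counts of called genes in the 3 pathway lists stayed at 0 with normexp, with the slide as a block and with all probes tested.

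The 18 called genes (9 higher, 9 lower; 1843 at an unadjusted p under 0.05) became 9 with quantile normalisation, 49 with a common floor, 3 without a filter, 11 with all 8 arrays above background, 7 with all probes tested, 32 with array weights and 11 with the slide as a block. By limma 0 genes were called with median scaling (1596 at an unadjusted p under 0.05), relative to the cardiomyocyte markers (1701), within slide 1 (1570) and within slide 2 (790), and 0 to 7 when 1 array was left out. The median over all tested genes, 0.16 as reported, lay at 0.10 with normexp, 0.051 with normexp and quantile normalisation, 0.094 with quantile normalisation, 0.12 with the floor, 0.20 without a filter, 0.22 with array weights, 0.27 within slide 1, 0.063 within slide 2 and -0.20 relative to the cardiomyocyte markers. It ran from 0.093 without GFP-low replicate 3 to 0.25 without GFP-high replicate 3.

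Same-numbered arrays correlated in their deviations by 0.11, 0.15, 0.30 and 0.065, and 7 of 8 arrays correlated best with their own number. Unlabelled numbers were to be taken as pairs only if all 4 correlations passed 0.1, and 3 did. The reported fit therefore has no term for the replicate number, and any spread between numbers is part of its intervals. With a block for the replicate number, 0 genes were called by limma (2383 at an unadjusted p under 0.05), and the limma adjusted p was 0.216 for Popdc2, 0.934 for Bves and 0.959 for Popdc3. Same-numbered arrays of Bves differed by -0.043, 0.058, 0.15 and -0.023. No member had a further probe, so the alternatives with all probes or the mean over probes repeated the reported differences. The members were well above background on all 8 arrays, while Kcnk2, Adcy9, Hcn3, Hcn2, Adcy1 and Adcy5 were not. Whether the strength of the signal had a part in the spread of Popdc3 was not tested.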
